A study of Glycine max with 12 samples.

Results

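Aquaporins were represented on the Affymetrix Soybean Genome Array by 32 probe sets, assigned to 19 genes, of 37593 soybean probe sets in the table. Each probe set combines several short probes into 1 reading of a transcript, and every probe set of a gene was kept. Members were all soybean probe sets that the platform's gene table assigns to a single gene whose symbol starts with PIP, TIP, NIP or SIP followed by a digit. By subfamily there were 9 PIP1 probe sets (6 genes), 16 PIP2 probe sets (8 genes), 2 NIP probe sets (2 genes) and 5 SIP probe sets (3 genes). No TIP symbol met the rule, so tonoplast aquaporins are described only through older gene names at the end of the results.

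Aquaporins are membrane channels that let water, and in some cases small uncharged solutes, pass through cell membranes. In plants the plasma membrane intrinsic proteins (PIPs) carry much of the water flow across the plasma membrane, the tonoplast intrinsic proteins (TIPs) that across the vacuole membrane, the nodulin-26-like proteins (NIPs) often conduct glycerol, boric acid or silicic acid, and the small basic intrinsic proteins (SIPs) are known in Arabidopsis from the endoplasmic reticulum. PIP2 proteins are usually strong water channels, whereas many PIP1 proteins, as known in maize, reach the plasma membrane in tetramers with PIP2 proteins.

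Leaves of the third trifoliate of 2 soybean cultivars were profiled on day 21, on 12 arrays in 4 groups of 3. The groups were infested SD01-76R (SA), an aphid-susceptible line called S plants here, uninfested SD01-76R (SC), infested LD16060 (RA), an aphid-resistant line carrying Rag1 and called R plants here, and uninfested LD16060 (RC). Infested plants received 30 soybean aphids each, uninfested plants were handled alike without aphids, and all plants were kept under nets. Each array held leaf RNA pooled from a pair of plants. Aphid treatment was assigned by side of the growth chamber, so an effect of aphids and an effect of position cannot be told apart.

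Levels are log2 intensities quantile normalized over all soybean probe sets, differences are log2 differences with the standard error (SE) of the limma fit, and a call means that the p adjusted by Benjamini-Hochberg over all 37593 soybean probe sets was under 0.05. As deposited, the array medians ran from 6.86 to 7.71. On the normalized scale the median level of all soybean probe sets was 7.28 in each of the 4 groups, and the median of the 60 control probe sets lay between 5.37 and 5.43. Leaf markers (16 probe sets with CAB, PSAD and RCA symbols) had a mean intensity, on the log2 scale, of 10.80 to 11.06 on the SA arrays, 10.98 to 11.33 on the SC arrays, 10.72 to 11.57 on the RA arrays and 10.76 to 11.26 on the RC arrays, with 2 or 3 of 16 at the control level in a group. None of these 16 was called in S plants, where 15 of 16 had negative differences with a median of -0.25, beside 21384 of 37593 soybean probe sets negative. Their part in the aquaporin values was not tested. In leaf RNA, fewer cells of a type and less RNA per cell cannot be told apart.

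Of the 32 aquaporin probe sets, 17 had a mean level at or above the median of all soybean probe sets (5 of 9 PIP1, 9 of 16 PIP2, 1 of 2 NIP and 2 of 5 SIP). Group means at or under the control level were found for 3 PIP2 probe sets, namely 1 each of PIP2-1 and PIP2-4 in 3 groups and 1 of PIP2-6 in all 4 groups. Probes differ in affinity, so levels of different probe sets are not ranked as amounts of transcript. The suffix _s_at or _x_at, carried by 11 of the 32, marks probe sets whose probes can match more than 1 transcript, and among near-identical PIP copies their assignment to a gene is uncertain. The mean intensity of the 32 members, on the log2 scale, was 9.86 to 10.10 on the SA arrays and 10.32 to 10.47 on the SC arrays, which did not overlap, and 10.09 to 10.52 on the RA arrays and 10.38 to 10.65 on the RC arrays, which did. This mean was taken over unlogged intensities, so the brightest probe sets weigh most, led by the _x_at probe set of PIP1-7 (mean level 13.33). It does not describe the 32 members evenly. The map of all members over the arrays shows the 3 SA arrays as the low columns for PIP1-1, PIP1-10, PIP2-9 and PIP2-13.

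**Figure D1:**
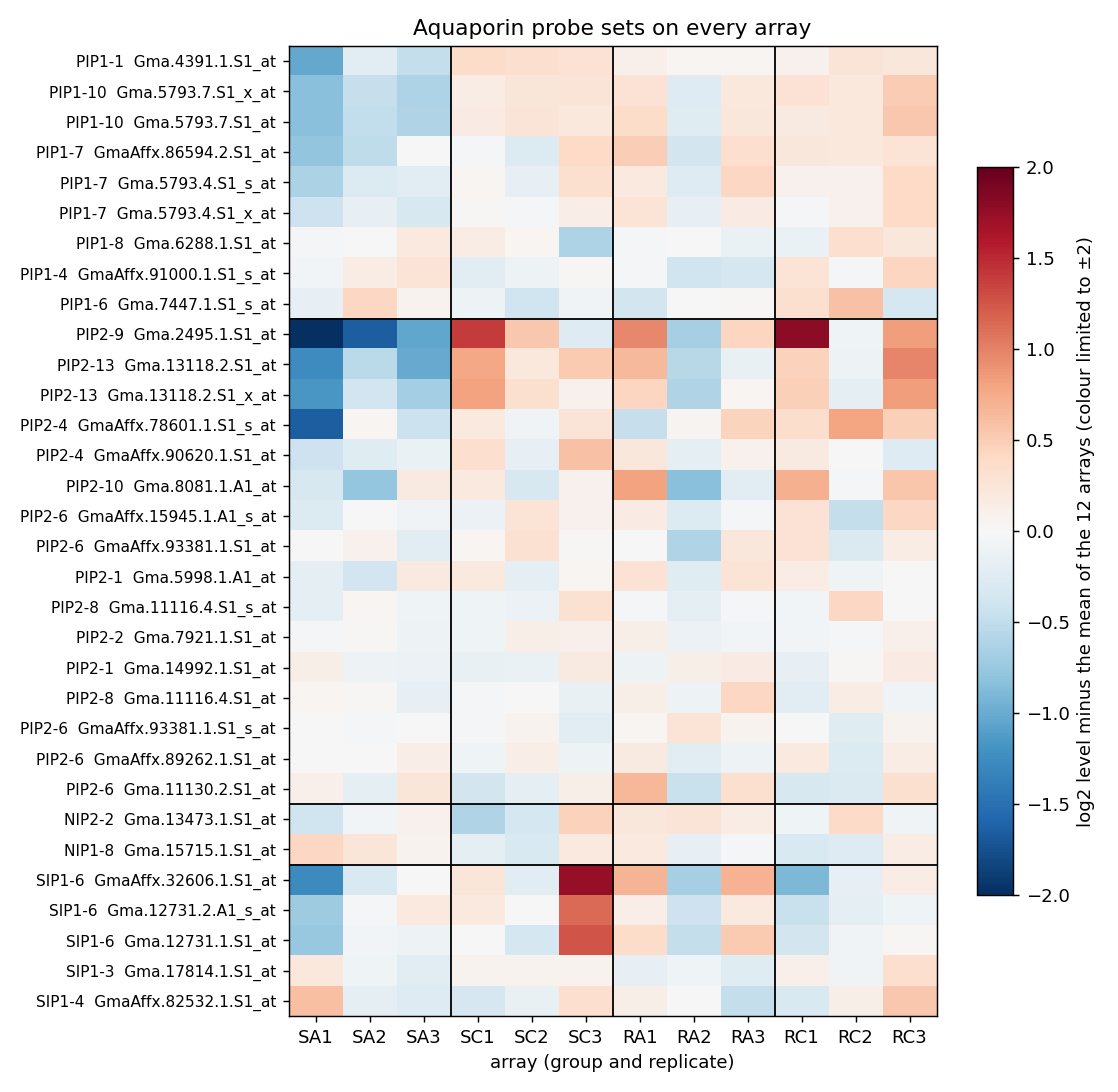
Log2 level of each of the 32 aquaporin probe sets on each of the 12 arrays, as the difference from that probe set's mean over the 12 arrays (colour, limited to 2 units either way), with rows grouped as PIP1, PIP2, NIP and SIP and columns as infested S (SA), uninfested S (SC), infested R (RA) and uninfested R (RC) plants. Blue cells gather in the SA columns of PIP1-1, PIP1-10, PIP2-9 and PIP2-13. RA replicate 2 is also blue on the PIP2-9 and PIP2-13 rows, and SC replicate 3 is red on the 3 SIP1-6 rows.

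In S plants, aphids were accompanied by lower levels of 5 aquaporin probe sets from 4 genes, PIP1-1, PIP1-10, PIP2-13 and PIP2-9, and by no higher call. The falls ran from 0.85 log2 units for PIP1-10, a fold of 1.81, to 2.21 log2 units for PIP2-9, a fold of 4.64. The 5 called probe sets were 15.6% of the members, beside 0.902% of all soybean probe sets called lower in this comparison. Higher calls were 0 of 32 members, beside 2.51% of all soybean probe sets. By subfamily, 3 of 9 PIP1 probe sets and 2 of 16 PIP2 probe sets were called lower, and 0 of 2 NIP and 0 of 5 SIP. Probe sets of 1 gene are not separate observations, and both called PIP1-10 probe sets, 1 of them an _x_at probe set, read the same target. With p under 0.05 before adjustment, 9 members were lower and 0 higher, beside 8.88% and 7.73% of all soybean probe sets. The SA arrays lay wholly below the SC arrays in 8 of 32 members and wholly above in 0, beside 10.8% and 8.33% of all soybean probe sets. The median difference of the 32 members was -0.185, with 22 of 32 negative, beside -0.04 for all soybean probe sets, with 21384 of 37593 negative. The subfamily medians were -0.44 for PIP1, -0.16 for PIP2, 0.19 for NIP and -0.62 for SIP, where 3 of the 5 probe sets read SIP1-6. Within pairs of the same replicate number, SA was lower than SC in all 3 pairs for 14 of 32 members and higher in all 3 for 2, beside 22.6% and 16.1% of all soybean probe sets. These pairs rest on the number of the label only, since SA and SC plants stood on opposite sides of the chamber.

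PIP1-1, a plasma membrane aquaporin of the PIP1 group read by 1 probe set, had levels of 8.44, 9.24 and 8.99 on the SA arrays, against 9.83, 9.80 and 9.75 on the SC arrays. The 3 SA arrays did not overlap with the SC arrays, and SA replicate 1 was the lowest. The means were 8.89 ± 0.41 in SA and 9.80 ± 0.04 in SC (SD, n = 3 each), a difference of -0.90 (SE 0.18, limma adjusted p = 0.0159, fold 1.87). In R plants the levels were 9.57, 9.50 and 9.51 on the RA arrays, against 9.55, 9.73 and 9.70 on the RC arrays. These overlapped, and the difference of -0.13 had a 95% interval of -0.52 to 0.25.

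PIP1-10, also of the PIP1 group, was read by 2 probe sets of the same target, with the suffixes _at and _x_at. On the _at probe set the levels were 10.81, 11.16 and 11.05 in SA, against 11.81, 11.91 and 11.86 in SC. The difference was -0.85 (SE 0.17, limma adjusted p = 0.0201). On the _x_at probe set they were 10.86, 11.25 and 11.09 in SA, against 11.85, 11.95 and 11.96 in SC. There the difference was also -0.85 (SE 0.17, limma adjusted p = 0.0163), and on both probe sets all SA arrays lay below all SC arrays. In R plants the _at probe set read 12.01, 11.40 and 11.88 in RA, against 11.82, 11.86 and 12.18 in RC. RA replicate 2 was the lowest of these and the groups overlapped. The difference in R plants was -0.19 (95% interval -0.57 to 0.19) on this probe set and -0.25 (-0.62 to 0.11) on the _x_at probe set.

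PIP2-9, a PIP2-type water channel read by 1 probe set, had the largest difference of the 32 members in S plants. Its levels were 6.60, 7.23 and 7.83 in SA, against 10.27, 9.41 and 8.62 in SC. All SA arrays were below all SC arrays, although the arrays within each group spread over more than 1 log2 unit. The means were 7.22 ± 0.62 in SA and 9.43 ± 0.83 in SC (SD, n = 3 each), a difference of -2.21 (SE 0.55, limma adjusted p = 0.0492). In R plants the levels were 9.84, 8.21 and 9.30 in RA, against 10.65, 8.79 and 9.70 in RC. These groups overlapped, the difference was -0.60 (95% interval -1.80 to 0.60), and replicate 2 was the lowest of its group in both. A table of the study assigns this probe set to another PIP gene than the platform's table does, so its gene name is uncertain. PIP2-12, the next gene to PIP2-9 in the RefSeq annotation (assembly Glycine_max_v4.0), has no probe set under the rule.

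PIP2-13, a further PIP2-type gene, was also read by an _at and an _x_at probe set. On the _at probe set the levels were 7.75, 8.48 and 8.01 in SA, against 9.79, 9.23 and 9.54 in SC. The groups did not overlap, and the difference was -1.44 (SE 0.33, limma adjusted p = 0.0333, fold 2.71). On the _x_at probe set the levels were 7.84, 8.62 and 8.32 in SA, against 9.81, 9.32 and 9.08 in SC. All SA arrays were again below all SC arrays, and the difference of -1.14 (SE 0.32) was not called (limma adjusted p = 0.0807). In R plants the _at probe set read 9.65, 8.46 and 8.87 in RA, against 9.47, 8.92 and 9.98 in RC. The groups overlapped and the difference was -0.46 (95% interval -1.17 to 0.25).

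**Figure D2:**
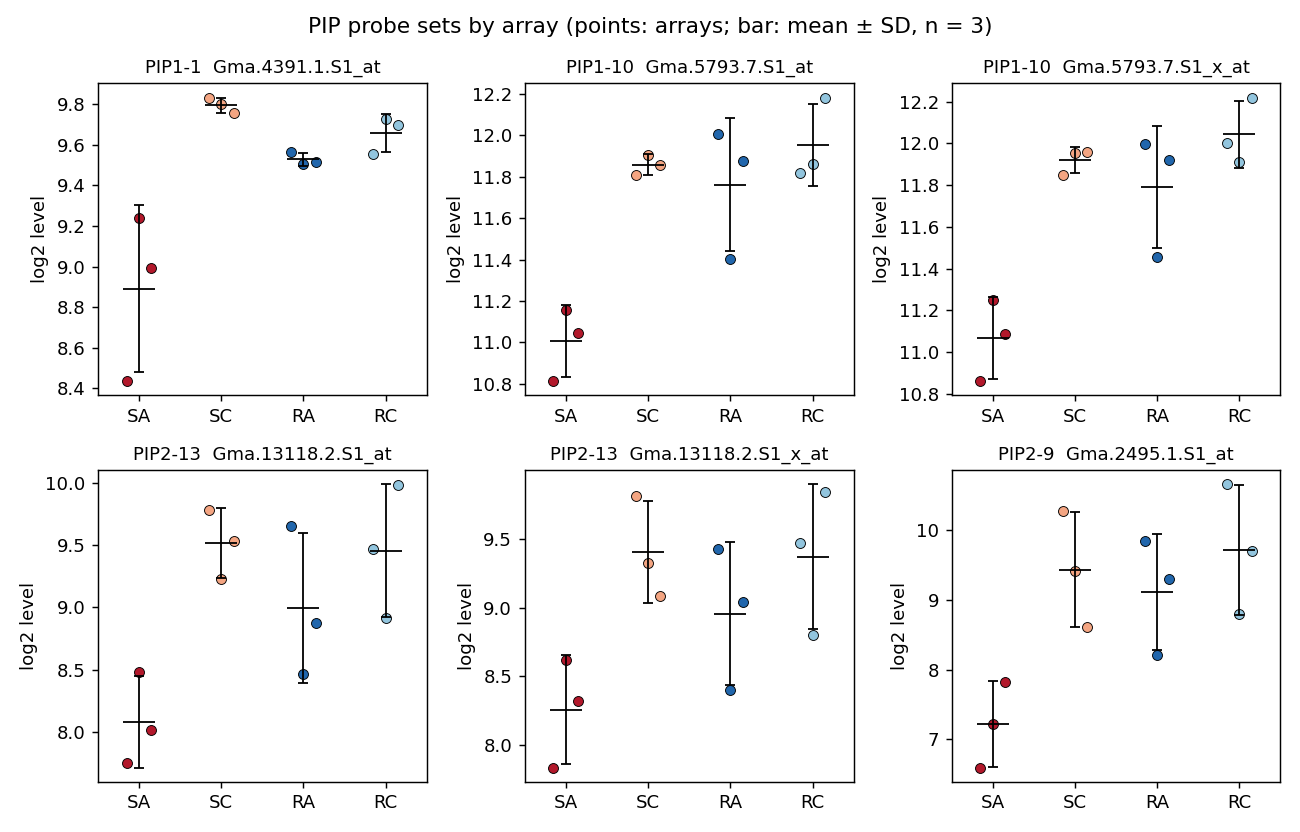
Log2 level (y axis, a separate range in each panel) of 6 PIP probe sets on each array, for infested S (SA), uninfested S (SC), infested R (RA) and uninfested R (RC) plants; points are arrays, the bar is the mean and its whiskers ± 1 SD (n = 3). In each panel the 3 SA arrays lie below the 3 SC arrays, while RA and RC overlap.

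Other criteria of the Methods gave fewer lower calls, and partly on other probe sets. The relaxed pair, a change of 2-fold or more together with a p of 0.05 or less, was met by 3 of 32, beside 1.25% of all soybean probe sets. These were PIP2-9 and both PIP2-13 probe sets, so that 2 of the 5 above were among them and no PIP1 probe set was. The stricter set, the same change together with a p of 1e-04 or less and a q of 0.04 or less, was met by 0, beside 0.114%. Both criteria were applied here to the quantile normalized values and the limma fit, not to the study's own GCRMA values and model. The study's own calls can therefore differ, and those on the aquaporin probe sets are not given here. The calls also rested on few arrays. Without SA replicate 1, 1 of 5 lower calls was left (PIP1-1), beside 0.168% of all soybean probe sets called lower in that fit, and without SC replicate 1, 1 was left as well (a PIP1-10 probe set), beside 0.375%. On the values as deposited PIP1-1 and PIP1-10 had larger differences, -1.06 for PIP1-1 and -0.98 and -0.99 for the PIP1-10 probe sets, that missed the threshold (limma adjusted p = 0.0716, 0.124 and 0.111). PIP2-9 and PIP2-13 missed it after normexp background correction (0.0794 and 0.0504), and PIP2-9 also with trend and robust empirical Bayes moderation (0.0734). In a fit of only the SA and SC arrays PIP1-1 and PIP2-9 were not called (limma adjusted p = 0.0867 and 0.052).

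The 3 probe sets of PIP1-7, a further PIP1 gene, had differences of -0.34 to -0.46 in S plants, and none was called (adjusted p from 0.291 to 0.407). On 2 of these, with the suffixes _s_at and _x_at, the SA arrays lay below the SC arrays. On the _x_at probe set the levels were 12.93, 13.17 and 13.02 in SA, against 13.35, 13.32 and 13.47 in SC. The other 3 PIP1 genes, PIP1-4, PIP1-6 and PIP1-8, had 1 probe set each, with differences of 0.19 to 0.30 and no call.

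Both probe sets of PIP2-4, a PIP2-type gene, had negative differences in S plants without a call. The _s_at probe set read 8.49, 10.17 and 9.70 in SA, against 10.33, 10.07 and 10.38 in SC, so that SA replicate 1 alone stood far below. Its difference was -0.81 (SE 0.36, limma adjusted p = 0.277). The _at probe set, at or under the control level in 3 groups, had a difference of -0.52 (adjusted p = 0.215). PIP2-1, PIP2-2 and PIP2-10 had differences from -0.29 to -0.0007 over 4 probe sets, none of them called.

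PIP2-6 and PIP2-8, also of the PIP2 group, had probe sets of both signs in S plants. For PIP2-6, the brightest _at probe set read 9.93, 9.66 and 10.07 in SA, against 9.47, 9.65 and 9.95 in SC (difference 0.19). The brighter _s_at probe set read 10.35, 10.64 and 10.57 in SA, against 10.51, 10.91 and 10.72 in SC (difference -0.19). On both, the SA and SC arrays overlapped, although within same-numbered pairs the _at probe set was higher in SA in all 3 pairs, by 0.003 to 0.46, and the _s_at probe set lower in all 3, with differences of -0.16 to -0.27. Neither was called with the replicate number as a block. Of the other PIP2-6 probe sets, an _at probe set read 5.72, 5.81 and 5.49 in SA, against 5.77, 6.03 and 5.75 in SC. The _s_at probe set of the same target read 6.01, 5.96 and 6.00 in SA, against 5.98, 6.07 and 5.78 in SC. Both pairs overlapped, at readings little above the control level. The remaining _at probe set, at or under the control level in all 4 groups, read 5.36, 5.36 and 5.49 in SA, against 5.28, 5.49 and 5.27 in SC. For PIP2-8, the _at probe set read 12.17, 12.16 and 11.98 in SA, against 12.10, 12.14 and 12.00 in SC, a difference of 0.03 (95% interval -0.31 to 0.37). Its _s_at probe set read 10.51, 10.74 and 10.62 in SA, against 10.61, 10.58 and 11.01 in SC, a difference of -0.11 (-0.47 to 0.24). The arrays of SA and SC overlapped on both PIP2-8 probe sets.

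NIP1-8, a nodulin-26-like gene, read 9.00, 8.82 and 8.65 in SA, against 8.39, 8.28 and 8.78 in SC. SC replicate 3 lay among the SA arrays, and the difference of 0.34 (SE 0.18) was not called (limma adjusted p = 0.389). The other NIP gene, NIP2-2, read close to the control level and had a difference of 0.03 (95% interval -0.50 to 0.57).

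SIP1-6, a small basic intrinsic protein gene, had 3 probe sets with negative differences in S plants, none of them called. The _at probe set with the smallest p read 5.95, 6.91 and 7.22 in SA, against 7.46, 7.00 and 8.96 in SC. Its difference was -1.11 (SE 0.53, limma adjusted p = 0.318). SC replicate 3 was the highest of all 12 arrays and SA replicate 1 the lowest, and the middle values overlapped. Within same-numbered pairs the differences were -1.51, -0.09 and -1.74, and without SC replicate 3 the difference was -0.53. The other _at and the _s_at probe set had differences of -0.62 each (adjusted p = 0.469 and 0.339), with SC replicate 3 again the highest array (7.80 and 7.98). In R plants the 3 probe sets had differences of 0.21 to 0.54 with intervals on both sides of 0. SIP1-3 and SIP1-4 differed by -0.10 and 0.11 in S plants, without a call.

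**Figure D3:**
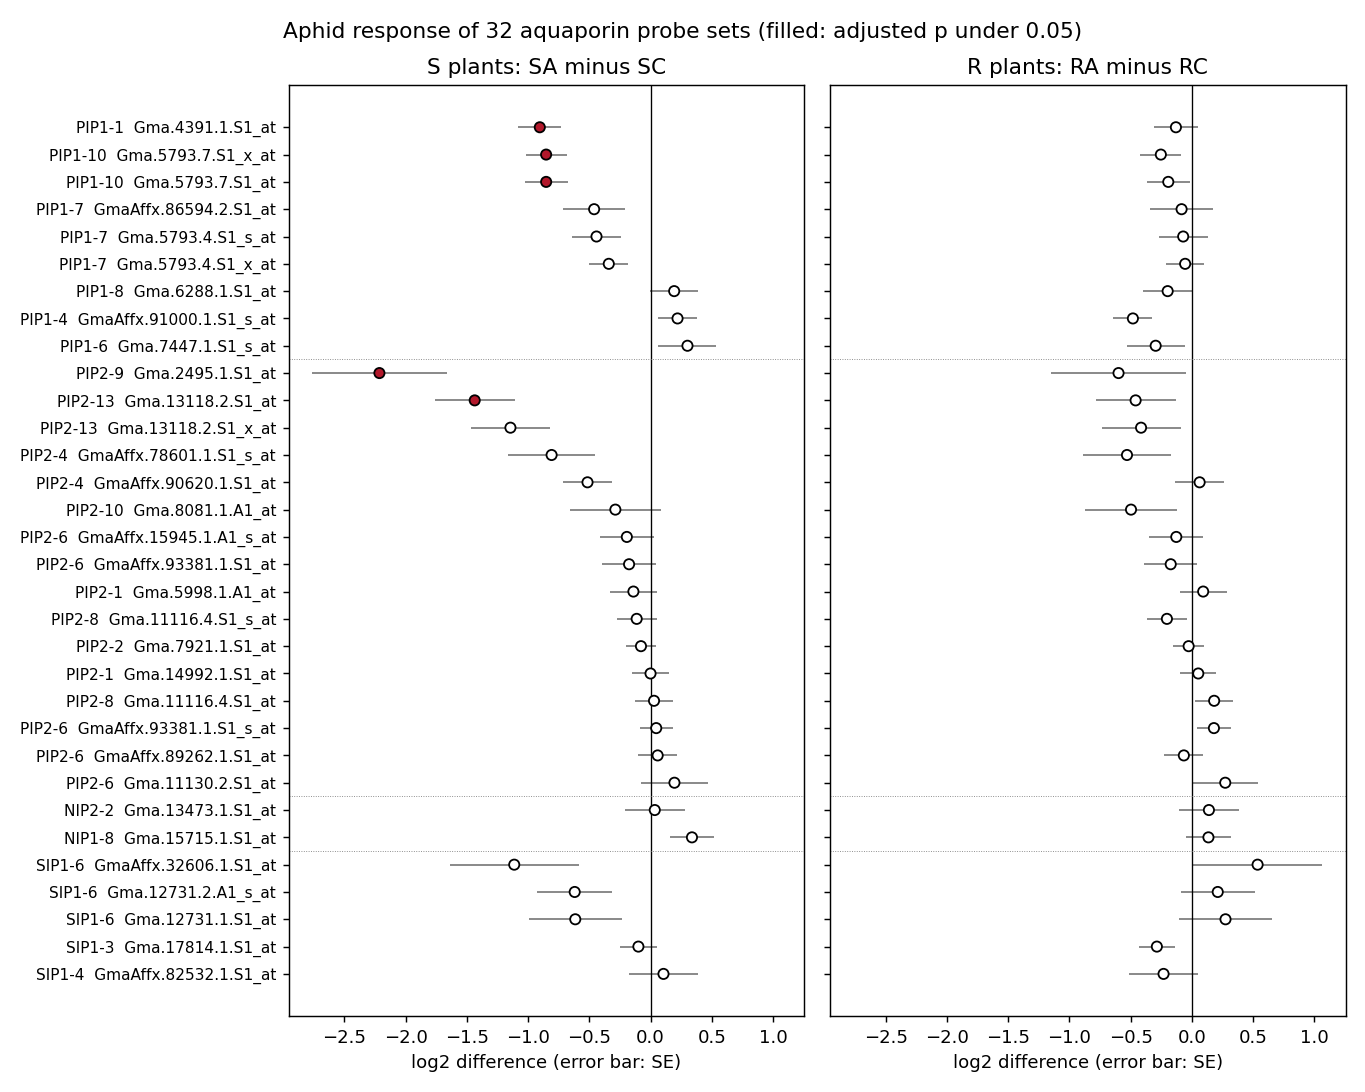
Log2 difference with aphids (x axis, error bar 1 SE of the limma fit) of the 32 aquaporin probe sets, in S plants (SA minus SC, left panel) and R plants (RA minus RC, right panel), with rows grouped as PIP1, PIP2, NIP and SIP. Filled points mark the 5 probe sets with an adjusted p under 0.05, all in S plants and all negative.

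In R plants no aquaporin probe set was called in either direction, beside 0% of all soybean probe sets in each direction. With p under 0.05 before adjustment, 1 member was lower and 0 higher, beside 0.87% and 1.19% of all soybean probe sets. That member was PIP1-4, a PIP1 gene read by 1 _s_at probe set, which read 6.68, 6.33 and 6.39 in RA, against 7.00, 6.69 and 7.15 in RC. The RA arrays lay just below the RC arrays, and the difference was -0.48 (SE 0.16, limma adjusted p = 1, unadjusted 0.0107). In S plants PIP1-4 read 6.67, 6.86 and 6.99 in SA, against 6.51, 6.62 and 6.74 in SC, which overlap, with SA higher in all 3 same-numbered pairs, by 0.16 to 0.25.

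The median difference over the members in R plants was -0.11, with 21 of 32 negative, beside -0.01 for all soybean probe sets, with 20016 of 37593 negative. All 9 PIP1 probe sets had negative differences (median -0.19), while the medians were -0.10 for PIP2, 0.14 for NIP and 0.21 for SIP. RA replicate 2 had the lowest level of the RA arrays in 24 of 32 members (75%), beside 37.4% of all soybean probe sets. Without it the median over the members was 0.02, without RC replicate 3 it was -0.03 and without RA replicate 1 it was -0.17. In S plants SA replicate 1 was the lowest SA array in 20 of 32 members (62.5%), beside 33.3% of all soybean probe sets, and without it the median over the members was -0.21.

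The difference between the aphid responses, R plants minus S plants, was called for 0 of 32 members, beside 0% of all soybean probe sets higher and 0.00798% lower. With p under 0.05 before adjustment, 4 members were higher in this difference and 1 was lower, beside 3.1% and 3.82% of all soybean probe sets. The largest of the 4 was an _at probe set of SIP1-6 at 1.65 (SE 0.74, limma adjusted p = 0.711). PIP1-1 had 0.77 (SE 0.25, adjusted p = 0.479), and the PIP1-10 probe sets had 0.66 and 0.60 (adjusted p = 0.595 and 0.629). PIP1-4 had -0.70 (SE 0.23, adjusted p = 0.477). For PIP2-9 the responses differed by 1.62 (95% interval -0.08 to 3.31) and for the _at probe set of PIP2-13 by 0.98 (-0.03 to 1.98). By the relaxed pair 1 member (SIP1-6) was higher, beside 0.918% of all soybean probe sets. The falls called in S plants were therefore not shown to differ from the response of R plants at the adjusted threshold.

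By harvest the infested S plants carried more aphids than the infested R plants, so cultivar and aphid load cannot be told apart between RA and SA, and the study set this comparison aside for that reason. Between infested cultivars, 2 members were higher in RA than in SA, both of them PIP1-10, and 0 were lower, beside 0.702% of all soybean probe sets called higher and 2.29% called lower. The difference was 0.76 (SE 0.17, limma adjusted p = 0.0394, fold 1.69) on the _at probe set and 0.72 (SE 0.17, adjusted p = 0.0405, fold 1.65) on the _x_at probe set, and all RA arrays read above all SA arrays. Neither was called after median centering (adjusted p = 0.0662 and 0.0692), on the values as deposited (0.286 and 0.297) or in a fit of only the arrays compared (0.125 and 0.133). With 1 array left out, both were called in only 3 of 12 fits. By the relaxed pair 1 other member (PIP2-9) was higher, beside 1.24% of all soybean probe sets, and by the stricter set 0, beside 0.0984%. With p under 0.05 before adjustment, 8 members were higher and 1 was lower, beside 7.68% and 7.62% of all soybean probe sets. PIP2-9 had a difference of 1.90 (SE 0.55, adjusted p = 0.0925) that passed with the replicate number as a block (adjusted p = 0.0364), and PIP1-1 one of 0.64 (SE 0.18, adjusted p = 0.0796). On these 4 probe sets, and on the _x_at probe set of PIP1-7, the 3 SA arrays lay below each of the other 9 arrays. This held for 5 of 32 members, beside 3.68% of all soybean probe sets. The comparison of infested cultivars shares its SA arrays with the aphid response of S plants, so both read the same 3 low arrays.

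Between uninfested cultivars no member was called, beside 0.0239% of all soybean probe sets higher and 0.0505% lower in RC than in SC. With p under 0.05 before adjustment, 0 members were higher and 1 was lower, beside 1.38% and 1.52% of all soybean probe sets. The 1 lower member was the _s_at probe set of SIP1-6, which read 6.41, 6.67 and 6.77 in RC, against 7.05, 6.86 and 7.98 in SC. The groups did not overlap, with SC replicate 3 far above, and the difference was -0.68 (SE 0.30, limma adjusted p = 1). The median over the members was 0.04, beside 0.01 for all soybean probe sets, and it was -0.01 after median centering, -0.03 without RC replicate 3, 0.08 without RC replicate 1, 0.14 without RC replicate 2 and 0.03 without SC replicate 1. PIP2-9 read 10.65, 8.79 and 9.70 in RC, against 10.27, 9.41 and 8.62 in SC, overlapping over most of their range.

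Tonoplast and further NIP genes were found through older names in the RefSeq gene table, which gave 13 probe sets of 4 genes, chosen after the annotation was seen. These were N-26, which encodes nodulin-26 of the root nodule symbiosome membrane, LOC547794 (TIP1-6), SPCP1 (a TIP1 gene) and LOC100306092 (TIP2-3). None of the 13 was called in any of the 5 comparisons. In S plants 11 of 13 differences were negative, with a median of -0.27, beside 21384 of 37593 negative and a median of -0.04 for all soybean probe sets. An unadjusted p under 0.05 was found for 3 of 13, all of them lower, beside 8.88% of all soybean probe sets. For TIP1-6, the _at probe set read 6.78, 6.72 and 6.95 in SA, against 8.00, 7.58 and 7.51 in SC. The SA arrays lay below all other 9 arrays, and the difference was -0.88 (SE 0.35, limma adjusted p = 0.22). The _s_at probe set of the same gene differed by -1.04 (SE 0.40, adjusted p = 0.211). On the _x_at probe set of SPCP1, levels were 10.25, 10.37 and 10.39 in SA, against 10.97, 10.66 and 10.57 in SC. Its SA arrays were also below the other 9 arrays, with a difference of -0.39 (SE 0.22, adjusted p = 0.418). This order held for only 2 of the 13, beside 3.68% of all soybean probe sets. None of the other SPCP1 probe sets had it. An _at probe set of SPCP1 had group means of 5.62 in SA and 5.59 in SC, and the rest had lower means in SA than in SC.

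**Figure D4:**
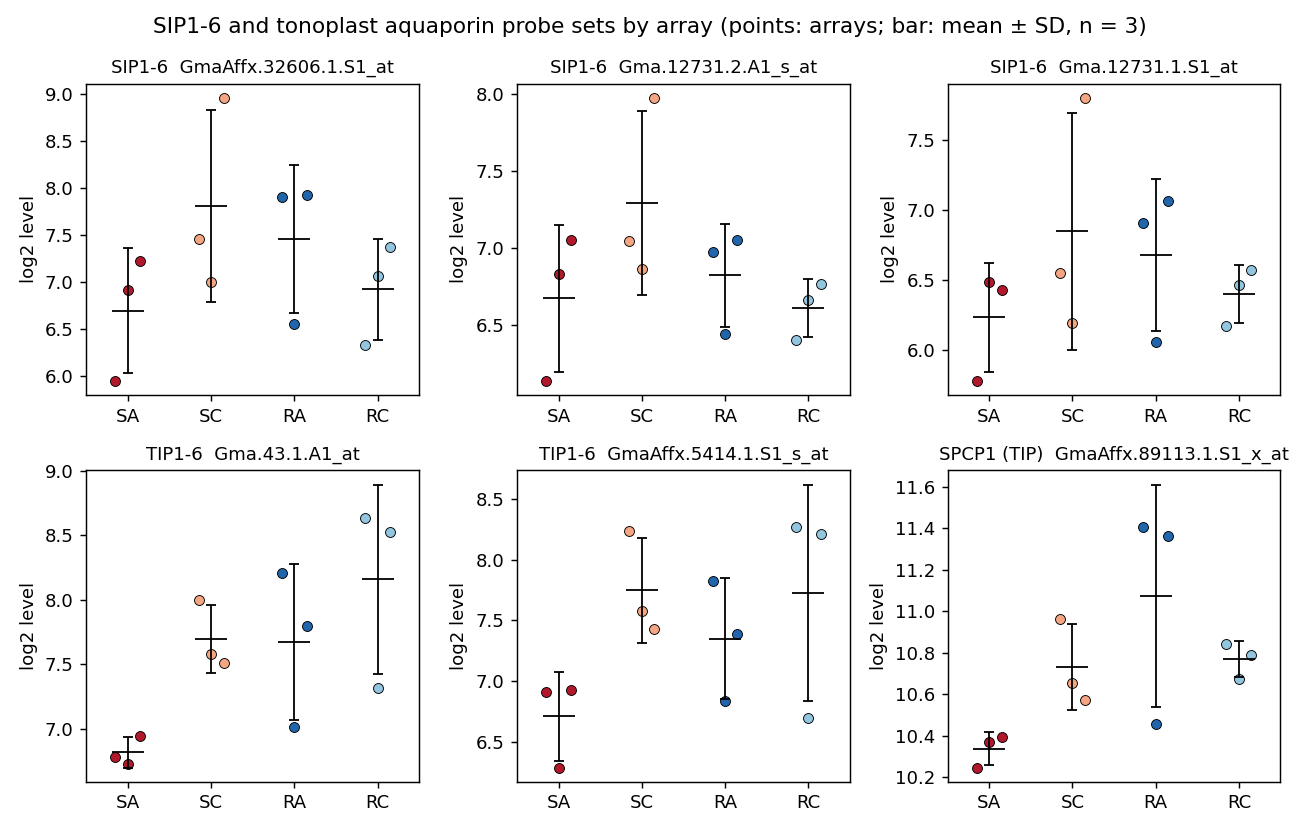
Log2 level (y axis, a separate range in each panel) on each array of the 3 SIP1-6 probe sets (top) and of 3 tonoplast aquaporin probe sets chosen after their values were seen (bottom), for infested S (SA), uninfested S (SC), infested R (RA) and uninfested R (RC) plants; points are arrays, the bar is the mean and its whiskers ± 1 SD (n = 3). SC replicate 3 stands highest on all 3 SIP1-6 probe sets, and the 3 SA arrays are the lowest of the 12 for the TIP1-6 _at and the SPCP1 _x_at probe set.

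Among 19 probe sets of other genes of membrane transport and water balance (SUT, SWEET, NHX and ERD symbols), 1 was called lower in S plants and 0 higher, beside 0.902% and 2.51% of all soybean probe sets, and the median difference was -0.31, beside -0.04. It belonged to SUT1, which encodes a sucrose transporter, and read 8.30, 8.35 and 8.15 in SA, against 9.80, 9.06 and 9.15 in SC (an _s_at probe set). The groups did not overlap, and the difference was -1.07 (SE 0.23, limma adjusted p = 0.0273). None of the 19 was called in the other 4 comparisons.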

How the data were processed

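The authors hybridized biotin-labelled leaf RNA to 12 Affymetrix Soybean Genome Arrays. The deposited table holds log2 values. The labels name RMA, GCRMA and limma, and the Methods GCRMA, yet 99.6% of values are the log2 of a whole number (tolerance 1e-06) and array medians differ. Quantile normalization was therefore applied to the soybean rows. The fit (limma 3.58.1, R 4.3.3) had 1 mean per group on all 12 arrays, empirical Bayes moderation and 5 two-sided contrasts. It was tested on simulated data with known changes.

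Of the 37593 soybean probe sets, 8677 had 1 gene symbol in the platform's table, 370 several, and 28546 were not listed there. All 32 members matched RefSeq by the same symbol. Neither table holds gene descriptions, so a planned list by description was replaced by the older names. Members and lists were chosen with earlier results of these data known. Values on every SA and SC array are given for members called in any comparison, for the smallest p of each subfamily in S plants and for genes with probe sets of both signs there. Values on the RA and RC arrays are given in the text for only some of these. Values of other members were chosen after they were seen.

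Replicate numbers of the labels were checked for pairing by the correlation of same-numbered deviations from group means. It ran from 0.129 to 0.362 between SA and SC, 0.292 to 0.484 between RC and SC, 0.172 to 0.416 between RA and SA and -0.122 to 0.489 between RA and RC. The highest correlation of different-numbered arrays was 0.204 for SA and SC and 0.39 for RA and RC. It was 0.026 for RC and SC and 0.049 for RA and SA. All same-numbered values lay above it only for RC and SC and for RA and SA. The numbers thus appeared to pair those arrays, as judged from the data only. For SA and SC, and for RA and RC, the correlations did not settle pairing. In the Methods aphid treatment was the whole plot, a side of the chamber, with complete blocks inside each plot. Infested and uninfested plants thus shared no such block, and their pairs rest on the number of the label only. The fit with the replicate number as a block spans both sides. The number of arrays limits the precision.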

Additional observations from a re-analysis of the deposited data

How the results depend on the processing

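The 5 lower calls in S plants (0.902% of all soybean probe sets lower) became 3 on the values as deposited (0.609%) and under the relaxed criteria of the Methods (1.25%), of which 2 were among the 5 in each, and 3, all among the 5, after normexp background correction with an offset of 50 (0.721%) and in a fit of only the SA and SC arrays (0.375%). Under the cutoffs of the Methods 0 were left (0.114%). Leaving out 1 array gave 1 to 5 lower calls (0.168% to 1.96%), with 2 left without SC replicate 3 and 3 without SA replicate 3, SC replicate 2 or RA replicate 3. The 2 higher calls of RA over SA (0.702%) were both lost on the values as deposited (0.426%) and under the relaxed criteria (1.24%), where 1 other member, PIP2-9, was called. There were 0 after median centering (0.644%), with only the arrays compared (0.263%) and under the cutoffs (0.0984%), and 0 to 3 with 1 array left out (0.112% to 1.57%), with fewer than 2 in 9 of 12 such fits. In the difference of the responses, 1 member passed the relaxed criteria. The cause of these changes was not tested.

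With the replicate number as a block, S plants kept 5 lower calls, the same ones, RA over SA had 3, adding PIP2-9, and no other member call changed. Over all soybean probe sets the block gave 2468 calls in S plants, against 1284 without it. It gave 2383 against 1126 for RA over SA, 53 against 28 for RC over SC and 67 against 3 for the difference of the responses.

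Of 1465 recomputed single values, 1409 kept their side of the threshold and their direction, 51 lost the call, 5 gained it and 0 called values changed sign. These values covered 75 single results, of which only 5 in S plants and 2 for RA over SA were called in the main fit. All 51 losses fell on those calls, and most values that kept their side were of results not called. As deposited, the median of all soybean probe sets in S plants was -0.17 and that of the members -0.29.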

Other observations

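Seed markers (20 probe sets of storage protein and protease inhibitor genes) had 10 probe sets at or under the control level in SA, 15 in SC, 14 in RA and 16 in RC. None of the 20 was called in S plants, and their median difference there was 0.07, with 11 positive and 9 negative. Among the brighter ones, KTI-2 (1 probe set) and KTI-3 (2 probe sets), which encode Kunitz trypsin inhibitors, had group means of 8.71 to 8.90 in SA and 10.15 to 10.48 in SC, with differences of -1.78, -1.32 and -1.35 (limma adjusted p = 0.231, 0.319 and 0.338). The _s_at probe set of BBI-1 went the other way, with group means of 7.54 in SA and 6.61 in SC. Its difference of 0.93 was the highest of the 20. The part of the seed markers in the aquaporin values was not tested. By symbol, 5 probe sets matched as nodule markers (1 of them, LBD23, by its letters only). Their mean intensity, on the log2 scale, lay between 6.10 and 7.00 over the 12 arrays. It was taken over unlogged intensities, so LBD23, with group means of 7.53 to 7.81, weighs most. ENOD55-2 and ENOD93 had group means of 5.23 to 5.55, around the control level of 5.37 to 5.43. At or under that level were 0 of 5 in SA, 0 in SC, 1 in RA and 2 in RC. N-26, the nodulin-26 gene, read 5.60, 5.36 and 5.97 in SA, against 6.04, 6.07 and 5.90 in SC, which overlap.

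The 3 SUT1 probe sets had differences of -0.65 to -0.71 in R plants and of -0.67 to -1.07 in S plants. All SA arrays lay below all SC arrays on all 3, beside 10.8% of all soybean probe sets. In R plants each had an unadjusted p under 0.05 and an adjusted p of 1. Of all soybean probe sets, 0.87% were lower there with an unadjusted p under 0.05. The 4 probe sets of NHX1, which encodes a vacuolar sodium/proton exchanger, had differences of -0.31 to -0.60 in S plants, none of them called (adjusted p from 0.0754 to 0.407). The NHX1 probe set at -0.31 had group means of 4.84 in SA and 5.15 in SC, under the control level. Both ERD15 probe sets went the other way in S plants, with all SA arrays above all SC arrays, beside 8.33% of all soybean probe sets. Their group means were 10.97 in SA and 10.43 in SC (_at), and 10.86 in SA and 10.22 in SC (_s_at). Neither was called. Of the 19 probe sets that include SUT1, NHX1 and ERD15, 14 had negative and 5 positive differences in S plants, beside 21384 of 37593 soybean probe sets negative.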
